A study of Mus musculus with 21 samples.

Results

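Hearts of Taz knockout mice were compared between the CAST-F1 and the BL6J background, from 7 of the 21 RNA-seq libraries of the study. The members were taken by their labels: 3 libraries with the strain label CAST-F1 and the genotype TAZ KO/Y (here CAST-F1 KO) and 4 libraries with the strain label BL6J and the same genotype (BL6J KO). Ventricular heart tissue of mice aged 2 months was used, and the animals are males, which carry Taz on their only X chromosome. The other libraries were 7 from the WT/Y littermates of these backgrounds (3 CAST-F1 WT, 4 BL6J WT), whose own background difference is set beside that of the knockout hearts, and 7 of another background, AJ-F1. All 21 libraries entered the fit and its estimate of spread. The F1 parents, the direction of the cross and the way the Taz knockout was made are not given in the sources used here. Whether libraries are from separate animals is not in the labels, and p-values therefore measure the spread between libraries, which may be partly technical.

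Taz encodes tafazzin, a mitochondrial acyltransferase that remodels the acyl chains of cardiolipin, the signature phospholipid of the inner mitochondrial membrane. Its loss in people causes Barth syndrome, with cardiomyopathy and skeletal muscle weakness, and cardiolipin is needed for the assembly of respiratory chain complexes. CAST is the usual short name of an inbred strain derived from a wild mouse subspecies, whose genome differs from that of laboratory strains at many regulatory and coding sites. Mutant hearts of different strain backgrounds are compared because the background can change how severe a mutation is.

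The 7 knockout libraries held 3848172 to 5545328 counted reads each. Levels are given as CPM, counts scaled to a common library size with TMM factors, and differences as log2 of CAST-F1 over BL6J with the standard error (SE) of the fit. A gene was called at an adjusted p under 0.05 in edgeR's quasi-likelihood test, Benjamini-Hochberg adjusted over 12333 genes. On the first principal component of the 7 libraries, which held 47.0% of the variance of log2 CPM, the CAST-F1 KO libraries lay at -33.7 to -35.6 and the BL6J KO libraries at 22.3 to 34.1. Pairs of libraries correlated at r = 0.979 to 0.981 within CAST-F1 KO, at 0.963 to 0.977 within BL6J KO and at 0.945 to 0.957 between the backgrounds. BL6J KO 2 stood apart from its group: it lay at 40.6 on the second component (16.4% of the variance), where the other 6 libraries lay between -21.8 and 0.882. With the control libraries added it lay at -19.1 on the component that separated the genotypes, closer to the controls than the other BL6J KO libraries at -43.1 to -45.2. The cause was not tested, and genes described here whose call changed without this library are named with their group. Cardiomyocyte markers summed to 39164 to 45813 CPM in CAST-F1 KO and 41153 to 47037 CPM in BL6J KO, so both groups held heart muscle. The sum was not set against atrial tissue, so it does not check that the muscle was ventricular. These are bulk samples, in which fewer cells of a type and less RNA per cell cannot be told apart.

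**Figure D1:**
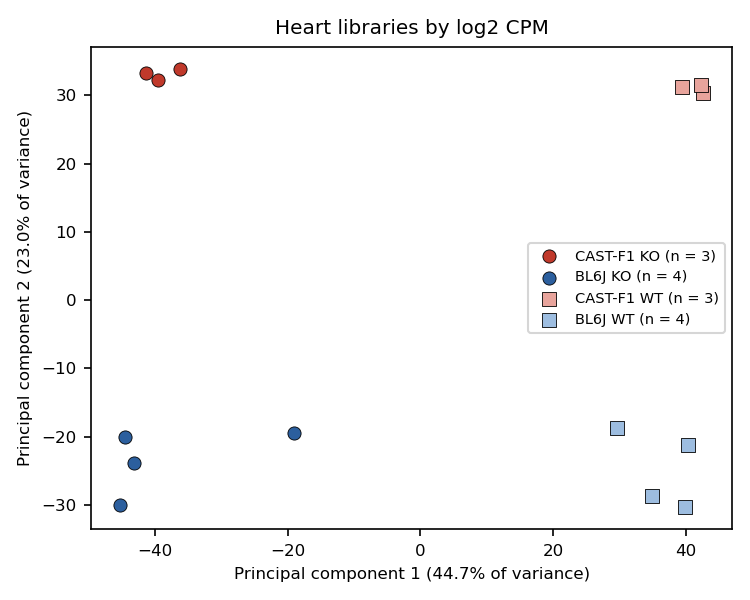
Position of the 14 knockout and control libraries on the first (44.7% of the variance) and second (23.04%) principal components of log2 CPM. Each point is 1 library. The first component separates KO from WT, the second separates CAST-F1 from BL6J, and BL6J KO 2 lies at -19.1 on the first, between its group and the controls.

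Taz itself (chromosome X, 74281900 to 74295319, GRCm38.p6) was low in all 7 knockout libraries, as their labels have it. It stood at 1.07, 2.60 and 2.28 CPM in CAST-F1 KO 1 to 3 and at 6.07, 5.94, 5.84 and 5.51 CPM in BL6J KO 1 to 4, from 26 and 125 reads in all. All CAST-F1 KO libraries lay below all BL6J KO libraries, with a log2 difference of -1.56 ± 0.30 (adjusted p = 0.00253). The controls stood at 45.3 ± 10.03 CPM (SD, n = 3) in CAST-F1 WT and 43.8 ± 2.52 CPM (SD, n = 4) in BL6J WT (log2 difference 0.05 ± 0.19). The test of the knockout difference against the control difference did not pass (-1.61 ± 0.35, adjusted p = 0.135). The call in knockout hearts held without each of the 7 libraries (largest adjusted p 0.0305). Among 14 genes of cardiolipin synthesis and remodelling, Taz was the 1 called lower, beside 2.98% of all genes tested. Cds1, which makes CDP-diacylglycerol, was the 1 called higher, beside 2.14%. Cds1 stood at 10.3, 10.4 and 9.13 CPM in CAST-F1 KO and 2.57, 3.61, 2.06 and 3.30 CPM in BL6J KO, without overlap (log2 difference 1.79 ± 0.30, adjusted p = 7.2e-04). It differed in control hearts too (2.89 ± 0.27, adjusted p = 3.1e-07).

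Across the 12333 genes tested, 631 differed between the knockout hearts of the backgrounds, 5.12% of all, with 264 higher in CAST-F1 (2.14%) and 367 lower (2.98%). The median difference over all genes was -0.00052 on the log2 scale. Called genes differed by a median of 1.01 on the log2 scale in either direction, and 318 of them by at least 2-fold (144 higher, 174 lower). CAST-F1 KO libraries lay wholly above or wholly below BL6J KO libraries for 2901 genes (23.5%), 1443 above (11.7%) and 1458 below (11.8%). The count of calls depended on the libraries: it was 403 without BL6J KO 4 and 323, 302 and 336 without CAST-F1 KO 1, 2 and 3, against 533, 570 and 518 without BL6J KO 1, 2 and 3. The excess of lower calls nearly vanished with a CAST-F1 KO library left out, with 155 higher and 168 lower without CAST-F1 KO 1, 148 and 154 without CAST-F1 KO 2 and 167 and 169 without CAST-F1 KO 3.

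Among called genes at 5 CPM or more in a knockout group and without overlap, the largest higher differences were mostly in gene copies and predicted loci that had next to no reads in BL6J KO. LOC100862446, a predicted locus, had 2049 reads in CAST-F1 KO and 0 in BL6J KO, at least 1105-fold higher if BL6J KO is set to a floor of 3 reads in all its libraries together. Eno1b, a retrogene copy of the enolase gene Eno1, had 1465 reads against 0 (at least 789.9-fold higher). Gm4737, Gm10045, the gasdermin gene Gsdma3 and Gm2808 also had 0 reads in BL6J KO and were at least 214, 79.8, 60.4 and 51.2-fold higher. Such floors, and the counting intervals given below, cover counting error only. Gapdh-ps15, a processed copy of the glycolysis gene Gapdh on chromosome Y, was the most abundant of these, at 2124, 2361 and 2515 CPM in CAST-F1 KO and 3.31, 1.27, 1.03 and 1.10 CPM in BL6J KO. Its log2 difference was 10.42 ± 0.48 in knockout hearts and 10.47 ± 0.48 in control hearts. In CAST-F1 WT and BL6J WT, LOC100862446 had 1696 reads against 0, Eno1b 1309 against 1 and Gsdma3 14 against 0. Of the 19 tested genes annotated as pseudogenes, 9 were called higher and 0 lower (47.4%). Of 160 loci with a predicted or pseudogene symbol, 31 were higher and 15 lower (28.8%), beside 4.95% of protein-coding genes.

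Several parent genes of these copies were lower in the same libraries, and since counts do not show how reads that match both were placed, the level of each is uncertain. Eno1 was called lower (-1.08 ± 0.23, adjusted p = 0.00566), and was called lower in control hearts too (-1.27 ± 0.23, adjusted p = 0.00154). Eno1b held 36.7% of the summed reads of the pair in CAST-F1 KO. The sum of the pair was 0.746 times that in BL6J KO, and its libraries overlapped between the groups. Hmga1, a chromatin architecture gene, was called lower (-1.05 ± 0.22, adjusted p = 0.00573) while its copy Hmga1b had 315 reads against 2, a ratio of 255 (95% counting interval 69.9 to 2113). Ppp1cc, a catalytic subunit gene of protein phosphatase 1, was called lower (-0.69 ± 0.12, adjusted p = 7.3e-04), and together with its copy Ppp1ccb it came to 1.05 times its level in BL6J KO. For Gapdh (-0.63 ± 0.20, adjusted p = 0.0701) the pair summed to 0.808 times, and for Rpl34 (-0.14 ± 0.18, adjusted p = 0.765), whose copy Rpl34-ps1 was called higher, to 1.22 times. Rpl37 with its copy Rpl37rt came to 1.30 times the BL6J KO level. It was the only 1 of 9 such pairs whose sums did not overlap between the groups, beside 23.5% of all single genes tested. Hbb-b1, an adult beta globin gene, stood at 15.8, 8.004 and 25.9 CPM against 0, 0, 0 and 0.184 CPM (213 reads against 1). The ratio was 345 (interval 61.2 to 13671), its globin copies make it uncertain, and its call (7.91 ± 2.11, adjusted p = 0.0457) was lost whenever 1 of the 7 libraries was left out.

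Calls were spread over the autosomes and rare on chromosome X. On the 19 autosomes 606 of 11750 tested genes were called (5.16%), from 3.06% on chromosome 18 to 6.88% on chromosome 6. On chromosome X 2 of 375 were called (0.533%), Taz and the complement gene Cfp, both lower in CAST-F1 KO. In control hearts the shares were 5.73% of autosomal genes and 2.13% of X-linked genes. On chromosome Y 1 of 5 tested genes was called in knockout hearts (20%), Gapdh-ps15, higher in CAST-F1 KO. Both groups are male and carry a single X chromosome, whose strain of origin in the CAST-F1 mice is not given in the labels.

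**Figure D2:**
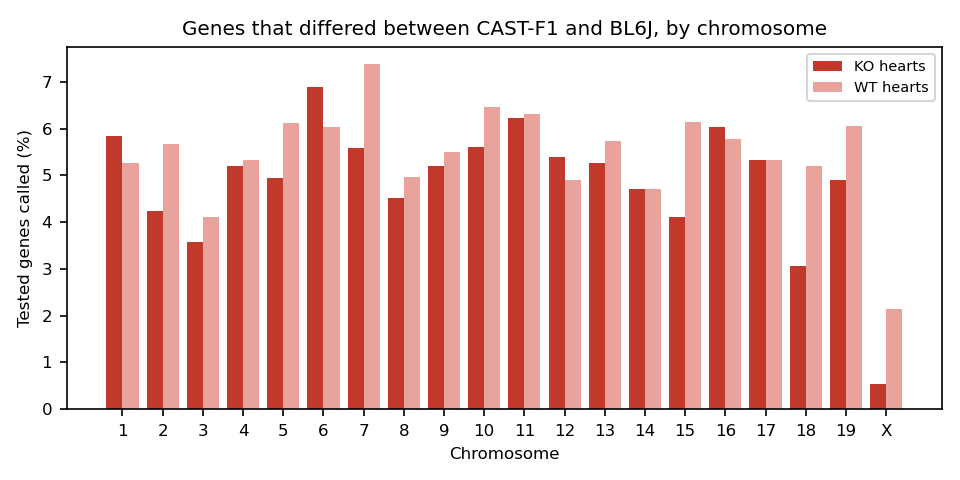
Share of tested genes called between CAST-F1 and BL6J on each chromosome, in percent, in knockout and in control hearts. Knockout bars run from 3.06% to 6.88% on the autosomes, and chromosome X stands at 0.533%.

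Interferon response genes were the list with the most lower calls in CAST-F1 KO. Interferons are secreted when cells sense viral or misplaced nucleic acid, and they switch on antiviral genes through factors that bind the interferon-stimulated response element in promoters. Of 25 tested members 12 were called lower and 1 higher, beside 2.98% and 2.14% of all genes, and the median difference of the list was -0.83 where that of all genes was -0.00052. To show what such promoters look like, the 250 bases before the start used in RefSeq's promoter table on GRCm38.p6 are printed for 2 lower members and the higher 1, 5′ to 3′ along the gene's strand, with matches in capitals to the core of that element, GAAA followed by any 2 bases and GAAA, or its reverse complement, TTTC followed by any 2 bases and TTTC:
Ifit1 (chr19:34640639-34640888, plus strand): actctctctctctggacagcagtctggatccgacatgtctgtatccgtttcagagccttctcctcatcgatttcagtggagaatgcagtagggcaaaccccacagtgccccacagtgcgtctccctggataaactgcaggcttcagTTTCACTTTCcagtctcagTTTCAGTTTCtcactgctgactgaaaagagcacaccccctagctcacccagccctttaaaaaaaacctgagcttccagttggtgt
Oas1a (chr5:120907526-120907775, minus strand): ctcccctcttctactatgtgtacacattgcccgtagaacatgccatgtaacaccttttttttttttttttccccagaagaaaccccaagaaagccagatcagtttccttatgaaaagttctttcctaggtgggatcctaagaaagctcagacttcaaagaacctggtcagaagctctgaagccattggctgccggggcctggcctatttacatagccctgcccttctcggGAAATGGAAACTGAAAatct
Xaf1 (chr11:72301379-72301628, plus strand): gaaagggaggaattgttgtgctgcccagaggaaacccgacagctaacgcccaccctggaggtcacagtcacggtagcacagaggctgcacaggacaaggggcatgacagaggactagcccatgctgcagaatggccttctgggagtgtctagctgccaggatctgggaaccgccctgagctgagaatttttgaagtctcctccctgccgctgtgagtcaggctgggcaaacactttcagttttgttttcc
The start used for Oas1a and Xaf1 lies inside the span listed for the gene, so a short stretch of the Oas1a window and the larger part of the Xaf1 window are inside the gene. Ifit1 holds 2 matches, Oas1a 2 overlapping matches near its start and Xaf1 none in this window. The motif was present in 303 of the 9681 tested genes with a promoter in the table (3.13%) and in 11 of 19 interferon genes (57.9%). Among the latter it was in 3 of 7 members called lower (42.9%), in 0 of the 1 called higher and in 8 of 11 not called (72.7%). A match of letters is a description and not a site of binding, and no match says only that these letters are missing from this window.

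Oas2 (chromosome 5, 120730333 to 120749886), an enzyme gene that makes the second messenger activating RNase L, stood at 2.57, 3.24 and 2.28 CPM in CAST-F1 KO and at 23.9, 11.7, 11.3 and 15.2 CPM in BL6J KO. Each BL6J KO library was above each CAST-F1 KO library, with a log2 difference of -2.51 ± 0.34 (adjusted p = 7.9e-05). In control hearts the difference was -2.52 ± 0.31, adjusted p = 1.6e-05. Ifit1, whose product binds viral RNA that lacks host cap marks, was at 1.497, 2.38 and 0.761 CPM in CAST-F1 KO and 9.56, 8.28, 5.84 and 6.06 CPM in BL6J KO (-2.22 ± 0.36, adjusted p = 5.3e-04). Irf7, the factor that amplifies the interferon response, was at 5.99, 5.41 and 5.32 CPM and 20.4, 20.4, 13.6 and 17.4 CPM (-1.68 ± 0.36, adjusted p = 0.00624). The groups did not overlap for either gene. Oasl2, an OAS-like gene, differed by -1.80 ± 0.27, Ifi44 by -1.93 ± 0.40 and Ifi27l2a by -1.44 ± 0.31. Ddx58, the viral RNA sensor RIG-I, differed by -0.77 ± 0.19.

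Xaf1, an interferon-induced gene tied to cell death, went the other way, at 18.4, 17.3 and 15.7 CPM in CAST-F1 KO and 6.07, 4.88, 4.12 and 4.59 CPM in BL6J KO (1.80 ± 0.28, adjusted p = 3.3e-04). Oas1a (-3.24 ± 0.60) and Ifit3b (-1.62 ± 0.45) have near-identical family copies and are uncertain. Zbp1, a sensor of left-handed nucleic acid, had 1 read in CAST-F1 KO against 39 in BL6J KO, 24.1 times higher in BL6J (counting interval 4.08 to 976). In control hearts 11 members were called lower and 1 higher, beside 2.37% and 3.36% of all genes. In the test of the knockout against the control difference 0 members were called, beside 0.0324% of all genes. The calls of Oas2, Oas1a, Oasl2, Ifit1, Irf7, Ifi44 and Xaf1 held without each of the 7 libraries. Without CAST-F1 KO 1, 2 or 3 the list kept 7 lower calls each, and without BL6J KO 1, 2, 3 and 4 it kept 9, 9, 11 and 8. Ifi27l2a was lost without CAST-F1 KO 1, Zbp1 without CAST-F1 KO 2 or 3 (it did not pass the filter on low counts without BL6J KO 1, 3 or 4), and Ddx58 without BL6J KO 2 or any 1 CAST-F1 KO library. Ifit3b was lost without BL6J KO 1 or 4 or any 1 CAST-F1 KO library, and Rtp4, another lower member (-1.11 ± 0.32, adjusted p = 0.0437), whenever 1 of the 7 was left out.

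Macrophage markers and complement genes were called in the lower direction only. All 10 macrophage markers had a negative difference (median -1.42), 3 of them called and 0 called higher, beside 2.98% and 2.14% of all genes, and their summed level was 115 to 158 CPM in CAST-F1 KO and 229 to 532 CPM in BL6J KO, without overlap. In controls it was 112 to 236 and 190 to 357 CPM. No marker was at 0 in either knockout group, and the part of macrophage content in the interferon result was not tested. C1qb, a chain of the first complement component made largely by macrophages, was at 41.1, 37.9 and 27.1 CPM in CAST-F1 KO and 101, 66.2, 64.9 and 157 CPM in BL6J KO (-1.46 ± 0.41, adjusted p = 0.0415). BL6J KO 4 was the highest library and the groups did not overlap. Fcgr1, an Fc receptor gene (-2.82 ± 0.77), and Timd4, a marker of resident macrophages (-2.96 ± 0.82), were called on 6 and 4 reads in CAST-F1 KO. Csf1r, the receptor of the macrophage growth factor, stood at 36.8 ± 5.79 against 64.1 ± 21.002 CPM (mean ± SD, n = 3 and 4) and was not called (-0.80 ± 0.35, adjusted p = 0.218), nor was the scavenger receptor gene Cd163 (-0.40 ± 0.37, adjusted p = 0.627).

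Folr2, a folate receptor gene of resident heart macrophages that was not in the list, was at 1.07, 1.73 and 1.01 CPM in CAST-F1 KO and 11.03, 8.70, 9.27 and 19.1 CPM in BL6J KO (-3.21 ± 0.46, adjusted p = 1.1e-04). The chemokine genes Ccl9 (-3.05 ± 0.66) and Ccl6 (-2.96 ± 0.71), which myeloid cells make, were also among the 12 largest called lower differences at 5 CPM or more without overlap, and Cbr2, a carbonyl reductase gene, differed by -2.65 ± 0.48. Folr2 (-1.94 ± 0.39), Ccl9 (-2.22 ± 0.60) and Ccl6 (-2.92 ± 0.69) were called lower in control hearts too. Cbr2 was not called there (-1.36 ± 0.44, adjusted p = 0.0807). Of 14 complement genes 4 were called lower and 0 higher (median -0.73), beside the same 2.98% and 2.14%. Besides C1qb these were C3ar1, the receptor of the C3a fragment (-2.19 ± 0.46), Cfp, the gene of properdin (-1.45 ± 0.39), and Cd59a, an inhibitor of the membrane attack complex (-0.67 ± 0.17). In control hearts 3 complement genes were called lower and 0 higher (median -0.86), beside 2.37% and 3.36% of all genes there. Without BL6J KO 4 or any 1 CAST-F1 KO library 0 macrophage markers were called, and without BL6J KO 1, 2 and 3 the count was 2, 4 and 5. The complement count was 1, 4, 5 and 1 without BL6J KO 1 to 4 and 1, 0 and 1 without CAST-F1 KO 1 to 3. Folr2 and Cbr2 held without each library. Ccl9 was lost without CAST-F1 KO 1 or 3, and Ccl6 without BL6J KO 4 or any 1 CAST-F1 KO library.

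Ion channel genes were called in the lower direction only. Of 24 tested channel and gap junction genes 5 were called lower and 0 higher, beside 2.98% and 2.14% of all genes, and 20 had a negative difference. The median was -0.74, and -0.39 without BL6J KO 2. Kcnip2 (chromosome 19, 45792346 to 45816422), the subunit that controls the transient outward potassium current, was at 110.4, 119.8 and 129.8 CPM in CAST-F1 KO and 241, 209.9, 192 and 239 CPM in BL6J KO (-0.88 ± 0.18, adjusted p = 0.00403). Kcnj12, an inward rectifier channel gene, was at 4.49, 4.98 and 6.09 CPM and 8.28, 14.4, 10.5 and 15.1 CPM (-1.22 ± 0.24, adjusted p = 0.00346). The groups did not overlap for either gene.

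The skeletal muscle sodium channel Scn4a, at 0, 0.433 and 0.761 CPM in CAST-F1 KO and 2.02, 8.07, 3.09 and 6.61 CPM in BL6J KO, had 5 reads against 103 (-3.61 ± 0.72, adjusted p = 0.00385), and the accessory subunit Scn4b 7 against 94 (7.99-fold lower, adjusted p = 0.00731). Hcn4, a pacemaker channel gene, had 8 reads against 50 and was not called (-1.92 ± 0.61, adjusted p = 0.074). In control hearts 1 of the 24 was called lower, beside 2.37% of all genes there, with a median of -0.20. The knockout difference was not shown to exceed the control difference for Kcnip2 (-0.67 ± 0.24, adjusted p = 0.786) or Scn4b (-2.74 ± 0.75, adjusted p = 0.411). Scn4b was lost without CAST-F1 KO 2 (adjusted p = 0.0518). Kcnip2, Kcnj12 and Scn4a held without each library.

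3 genes of fast skeletal muscle fibres, which ventricles express at low level, were lower as well. Atp2a1, the calcium pump of fast skeletal muscle, was at 0.642, 0.433 and 0.507 CPM in CAST-F1 KO and 6.44, 5.52, 4.64 and 11.8 CPM in BL6J KO (-3.69 ± 0.53, adjusted p = 1.2e-04), and controls differed by -0.14 ± 0.52 (difference of the differences -3.56 ± 0.77, adjusted p = 0.131). Myl1, a skeletal myosin light chain, was at 8.98, 8.65 and 8.37 CPM against 58.9, 57.1, 41.9 and 30.8 CPM (-2.44 ± 0.29, adjusted p = 1.2e-05), and controls differed by -2.71 ± 0.29. Casq1, the skeletal calcium store protein, differed by -2.42 ± 0.31, and by -1.77 ± 0.25 in controls. Myl1 and Casq1 were named after their values were seen. Of 6 skeletal muscle markers 2 passed the filter and 0 were called, and Tnnt3 and Tnni2 were at 0 reads in CAST-F1 KO. The part of skeletal fibres in the tissue was not tested. These 3 calls held without each library.

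Targets of the antioxidant factor NRF2 were called in the lower direction only, with 3 of 16 called lower, 0 higher and 15 with a negative difference (median -0.56), beside 2.98% and 2.14% of all genes called. The median in control hearts was -0.03. Gsta4, a glutathione transferase gene that clears lipid peroxidation products, was at 46.4, 52.1 and 44.6 CPM in CAST-F1 KO and 83.3, 77.1, 88.6 and 104 CPM in BL6J KO (-0.89 ± 0.14, adjusted p = 4.2e-04). Nqo1, the quinone reductase that is a standard readout of NRF2, was at 27.8, 28.8 and 25.4 CPM and 39.9, 44.8, 56.2 and 61.9 CPM (-0.89 ± 0.17, adjusted p = 0.00339). Srxn1, which repairs oxidised peroxiredoxins, was at 61.2, 49.97 and 58.8 CPM and 122, 60.7, 113 and 119 CPM (-0.87 ± 0.20, adjusted p = 0.0124). The groups did not overlap for Gsta4 and Nqo1, and for Srxn1 BL6J KO 2 lay just under the highest CAST-F1 KO library.

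Txnrd1, the cytosolic thioredoxin reductase (-0.62 ± 0.20, adjusted p = 0.0701), and Hmox1, the heme oxygenase (-1.02 ± 0.33, adjusted p = 0.0741), were not called with all libraries. Without BL6J KO 2 the list had 6 lower calls, Txnrd1 (-0.77) and Hmox1 (-1.25) among them, and without CAST-F1 KO 2 it had 2, with Srxn1 lost (adjusted p = 0.0893). The knockout difference was not shown to exceed that of controls for Gsta4 (-0.60 ± 0.20, adjusted p = 0.704), Nqo1 (-0.71 ± 0.24, adjusted p = 0.738) or Srxn1 (-0.91 ± 0.29, adjusted p = 0.68). Cat, the peroxisomal catalase that breaks down hydrogen peroxide, was among the 6 most abundant genes called lower, at 428, 445 and 456 CPM in CAST-F1 KO and 646, 618, 769 and 825 CPM in BL6J KO (-0.69 ± 0.12, adjusted p = 0.00133). Every BL6J KO library exceeded every CAST-F1 KO library, and the call held without each library.

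Subunits of the respiratory chain were called in the higher direction only. Of 36 complex I subunits 3 were called higher and 0 lower, with 32 positive differences (median 0.31), and of 41 subunits of complexes II to V 5 were higher and 0 lower, with 37 positive (median 0.32), beside 2.14% and 2.98% of all genes. Cox8b, the muscle form of a cytochrome oxidase subunit, was at 867, 939.9 and 772 CPM in CAST-F1 KO and 434, 425, 544 and 410.2 CPM in BL6J KO (0.92 ± 0.17, adjusted p = 0.00177). Ndufb2, an accessory subunit of complex I, was at 225, 272 and 247 CPM and 149.9, 145, 142 and 141 CPM (0.78 ± 0.16, adjusted p = 0.00518), and Ndufv2, an iron-sulfur subunit, at 912, 925 and 897 CPM and 678, 576, 620.1 and 564 CPM (0.58 ± 0.13, adjusted p = 0.0079). In each case the CAST-F1 KO libraries were all above the BL6J KO libraries.

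The other called subunits differed less: Ndufs6 by 0.49 ± 0.13, Cox5b by 0.45 ± 0.13, Cox6c by 0.53 ± 0.15, Cox8a by 0.57 ± 0.14 and Sdhd, a membrane anchor of complex II, by 0.54 ± 0.14. Cox7a1, the muscle form of another cytochrome oxidase subunit, was not called (0.32 ± 0.18, adjusted p = 0.365). In control hearts 3 complex I and 8 other subunits were called higher and 0 lower, beside 3.36% and 2.37% of all genes there. The control medians were 0.28 and 0.36. Cox8b, Ndufb2 and Ndufv2 held without each library. The complexes II to V count fell to 4, 3, 1 and 1 without BL6J KO 1 to 4 and to 2, 1 and 2 without CAST-F1 KO 1 to 3, and Ndufs6, Cox5b, Cox6c, Cox8a and Sdhd were each lost without 5 or more of the 7 libraries, BL6J KO 2 among them for all but Sdhd (largest adjusted p 0.135, 0.13, 0.187, 0.137 and 0.105).

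Genes of mitochondrial defence against peroxide were called in the higher direction only, with 4 of 13 members called and 0 lower (median 0.14), beside 2.14% and 2.98% of all genes. Nnt (chromosome 13, 119335527 to 119409257), the transhydrogenase that makes mitochondrial NADPH and in which the C57BL/6J strain is known to carry a deletion, was at 505, 488 and 470.4 CPM in CAST-F1 KO and 299.8, 331, 353 and 354 CPM in BL6J KO. The groups did not overlap (0.55 ± 0.13, adjusted p = 0.0155), and controls differed by 0.76 ± 0.13 (adjusted p = 9.8e-04). Counts per gene do not show which exons were read. Me3, the mitochondrial NADP-linked malic enzyme, was at 99.5, 99.7 and 92.6 CPM and 52.4, 61.3, 60.96 and 62.97 CPM (0.71 ± 0.14, adjusted p = 0.00467). Glrx2, a mitochondrial glutaredoxin (0.74 ± 0.17), and Prdx3, the matrix peroxiredoxin (0.49 ± 0.13), were the other members called. In control hearts 4 members were called higher and 0 lower (median 0.14), beside 3.36% and 2.37% of all genes there. Me3 (0.49 ± 0.14) and Glrx2 (0.92 ± 0.17) were called in controls, and Prdx3 was not (0.09 ± 0.13, adjusted p = 0.782). Me3 held without each library. Nnt was lost without CAST-F1 KO 1 or 2 (largest adjusted p 0.0724), Glrx2 without CAST-F1 KO 3, and Prdx3 without BL6J KO 2 or any 1 CAST-F1 KO library.

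Cytosolic ribosomal protein genes were called in the higher direction only, with 6 of 45 higher, 0 lower and 41 positive (median 0.35), beside 2.14% and 2.98% of all genes. Rps19, a small subunit protein, was at 213, 268 and 262 CPM in CAST-F1 KO and 153, 129, 134 and 136 CPM in BL6J KO (0.84 ± 0.17, adjusted p = 0.00498), without overlap. Rps23 differed by 0.66 ± 0.16, Rps20 by 0.62 ± 0.16 and Rpl7 by 0.58 ± 0.15. In control hearts 12 were called higher and 0 lower, beside 3.36% and 2.37% of all genes there, with a median of 0.41. Ribosomal protein genes have many processed copies, so levels of single members are uncertain. Rps19 held without each library, while the count of the list was 4, 4, 4 and 2 without BL6J KO 1 to 4 and 2, 1 and 1 without CAST-F1 KO 1 to 3. Of 31 proteasome subunits 1 was called higher, Psmb7 (0.48 ± 0.13, adjusted p = 0.0335), and of 18 chaperones of the endoplasmic reticulum 1, the secreted stress protein Manf (0.52 ± 0.13, adjusted p = 0.0255). A single call is near the 2.14% of all genes in lists of this length, and both calls were lost without several libraries, BL6J KO 2 among them.

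Of 20 genes of cholesterol synthesis and uptake 3 were called higher and 0 lower, beside 2.14% and 2.98% of all genes, while the median of the list was 0.06 and ran from -0.008 to 0.15 with a library left out. Lss, the synthase that closes the ring to lanosterol, was at 13.5, 14.7 and 12.9 CPM in CAST-F1 KO and 3.31, 2.76, 4.46 and 5.14 CPM in BL6J KO (1.79 ± 0.26, adjusted p = 1.7e-04). Fdft1, squalene synthase, was at 60.1, 58.6 and 59.8 CPM and 30.5, 34.8, 34.9 and 28.1 CPM (0.89 ± 0.17, adjusted p = 0.00256). Cyp51, the demethylase of lanosterol, was at 27.8, 29.4 and 29.2 CPM and 13.8, 15.1, 18.03 and 17.3 CPM (0.84 ± 0.17, adjusted p = 0.00501). The CAST-F1 KO libraries were the higher ones throughout, and these 3 calls held without each library. Lss and Fdft1 differed in controls as well (1.47 ± 0.28, adjusted p = 0.0029 and 0.85 ± 0.17, adjusted p = 0.00341), whereas Cyp51 did not pass there (-0.04 ± 0.19, adjusted p = 0.946). Its knockout difference was not shown to exceed its control difference (0.88 ± 0.26, adjusted p = 0.48).

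The integrated stress response restrains translation when amino acids or mitochondria fail and acts through the factor ATF4. Of its 25 tested genes 1 was called higher and 1 lower, near the 2.14% and 2.98% of all genes, and 9 had an unadjusted p under 0.05, beside 2308 of the 12333 genes. The median was -0.10, and -0.23 without BL6J KO 2, where 3 members were called lower and 0 higher. Atf4 was at 561, 552 and 568 CPM in CAST-F1 KO and 629, 402, 575 and 619 CPM in BL6J KO, a log2 difference of 0.01 ± 0.17 with a 95% interval of -0.35 to 0.37. The interval was -0.51 to 0.40 for Atf5, a related factor of mitochondrial stress, -0.86 to -0.026 for asparagine synthetase Asns and 0.03 to 1.05 for the pseudokinase gene Trib3. Intervals are not adjusted for the number of genes, and Asns (adjusted p = 0.215) and Trib3 (adjusted p = 0.217) were not called. BL6J KO 2 was the lowest library of its group for Atf4, Asns and Trib3.

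Sesn2, a sestrin that restrains growth signalling, was the member called higher, at 79.995, 74.6 and 97.4 CPM in CAST-F1 KO and 50.2, 44.8, 47.6 and 40.4 CPM in BL6J KO (0.88 ± 0.23, adjusted p = 0.0269). Slc7a5, a carrier of large neutral amino acids, was the one called lower, at 134, 104 and 115 CPM and 207, 170.03, 193 and 199 CPM (-0.71 ± 0.19, adjusted p = 0.0338). Neither gene overlapped between the groups. Sesn2 was lost whenever a library other than BL6J KO 1 was left out, and Slc7a5 whenever one other than BL6J KO 2 was. Slc7a11, the cystine carrier, was not called with all libraries (-1.09 ± 0.35, adjusted p = 0.0797) and passed without BL6J KO 2 (-1.25). Of 15 genes of serine, one-carbon and proline synthesis 1 was called lower and 0 higher, near the 2.98% and 2.14% of all genes. It was Shmt2, the mitochondrial serine hydroxymethyltransferase, at 151, 129 and 156 CPM in CAST-F1 KO and 246, 184, 246 and 268 CPM in BL6J KO (-0.70 ± 0.17, adjusted p = 0.0158). It was lost without BL6J KO 4 or CAST-F1 KO 1 or 2. Phgdh, which opens serine synthesis, had an interval of -0.87 to 0.11, Mthfd2, a mitochondrial folate enzyme, of -0.65 to 0.18 and Pycr1, of proline synthesis, of -0.89 to -0.048. Pycr1 was not called either (adjusted p = 0.195).

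Of 20 cytosolic tRNA synthetases, 16 secreted signals of stressed heart muscle and 18 genes of mitochondrial protein quality control, 0 were called in edgeR's test with all libraries. An unadjusted p under 0.05 was found for 1, 1 and 2 of them, beside 2308 of the 12333 genes. Gdf15, a hormone of stressed tissue, was at 235, 158 and 176 CPM in CAST-F1 KO and 327, 48.2, 255 and 352 CPM in BL6J KO (-0.37 ± 0.47, adjusted p = 0.752), and Fgf21, a metabolic hormone, at 40.9, 27.9 and 47.2 CPM and 82.4, 16.8, 44.8 and 55.4 CPM (-0.37 ± 0.33, adjusted p = 0.614). BL6J KO 2 was the lowest of all 7 libraries for both, and the groups overlapped. Mitochondrial protein quality control had 1 higher call without BL6J KO 1. Adm2, a peptide hormone of the adrenomedullin family, and Ostn, the muscle peptide osteocrin, overlapped too (intervals -0.75 to 0.28 and -0.46 to 0.66). The matrix protease gene Lonp1 (0.36 ± 0.13, adjusted p = 0.128) and the matrix chaperone gene Hspa9 (0.11 ± 0.21, adjusted p = 0.843) were not called. A p over the threshold does not show that levels were equal.

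**Figure D3:**
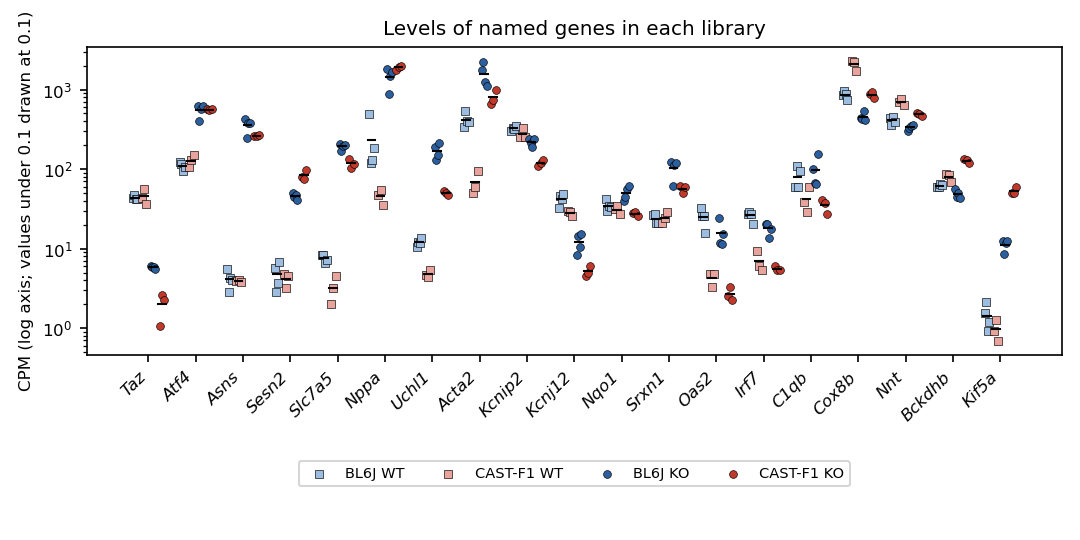
Levels in CPM (log axis) of 19 named genes in each knockout and control library of the BL6J and CAST-F1 backgrounds. Each point is 1 library and each short bar a group mean. Atf4 overlaps between the knockout groups, while Taz, Uchl1, Kcnip2, Oas2 and Irf7 are lower and Cox8b, Nnt, Bckdhb and Kif5a higher in every CAST-F1 KO library than in any BL6J KO library.

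Of 20 hypertrophy and fetal genes 2 were called lower in CAST-F1 KO and 0 higher, beside 2.98% and 2.14% of all genes. The median was -0.20, and it ran from -0.37 without BL6J KO 2 to -0.017 without CAST-F1 KO 2, where 10 members were positive and 10 negative. Uchl1, a ubiquitin hydrolase gene, was at 53.3, 50.4 and 46.9 CPM in CAST-F1 KO and 189, 130.1, 149 and 215 CPM in BL6J KO, without overlap (-1.77 ± 0.21, adjusted p = 1.1e-05), and controls differed too (-1.31 ± 0.25, adjusted p = 0.00318). Acta2, the smooth muscle actin that stressed cardiomyocytes also make, was at 657, 736 and 995 CPM and 1761, 2204, 1241 and 1106 CPM (-0.99 ± 0.25, adjusted p = 0.0215). Acta2 was lower in CAST-F1 controls too, with a larger difference of -2.61 ± 0.27 (adjusted p = 1.7e-06). The test of its knockout difference against its control difference did not pass (1.62 ± 0.35, adjusted p = 0.131). Of 8 tested markers of smooth muscle and pericytes, Acta2 among them, 1 was called lower and 0 higher, beside 2.98% and 2.14% of all genes. The 1 called was Acta2 itself, and the markers summed to 1618 to 1816 CPM in CAST-F1 KO and 1775 to 3469 CPM in BL6J KO. The part of those cells in the difference of Acta2 was not tested. Uchl1 held without each library, and Acta2 was lost without BL6J KO 1 or 2 or CAST-F1 KO 1 or 2.

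Nppa, the atrial natriuretic peptide gene of loaded ventricles, was at 1753, 1945 and 1992 CPM in CAST-F1 KO and 1792, 879, 1480.3 and 1645 CPM in BL6J KO, and was not called (interval -0.68 to 1.45). Myh7, the slow myosin heavy chain, was at 476, 673 and 814 CPM and 75.95, 111, 200.1 and 578 CPM, with BL6J KO 4 inside the CAST-F1 KO range (1.44 ± 0.68, adjusted p = 0.27). The fast chain Myh6 (-0.18 ± 0.17), the calcium pump Atp2a2 (0.01 ± 0.17), skeletal actin Acta1 (-0.10 ± 0.49), Nppb (-0.11 ± 0.47) and Ankrd1 (-0.28 ± 0.33) were not called either. Of 7 atrial markers 1 was called lower and 0 higher, beside 2.98% and 2.14% of all genes, and 6 had a negative difference. Their median was -1.53, and it ran from -3.14 without CAST-F1 KO 1 to -1.04 without CAST-F1 KO 3. The called marker was the growth factor Bmp10, with 3 reads against 153, 31.5 times higher in BL6J (counting interval 10.6 to 155). Its call was lost without each CAST-F1 KO library, and it did not pass the filter on low counts without BL6J KO 1 or 3. Atrial light chain Myl7 was at 33.4, 6.92 and 2.28 CPM in CAST-F1 KO and 37.7, 76.4, 48.9 and 3.67 CPM in BL6J KO, so libraries of both groups were high and low.

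Of 28 extracellular matrix genes 2 were called lower and 0 higher, beside 2.98% and 2.14% of all genes. The median was -0.07, and its sign turned with libraries left out, from -0.23 without CAST-F1 KO 1 to 0.04 without CAST-F1 KO 2. Postn, the matricellular protein of activated fibroblasts, was at 23.96, 21.2 and 21.05 CPM in CAST-F1 KO and 91.6, 52.4, 64.1 and 86.3 CPM in BL6J KO, without overlap (-1.74 ± 0.34, adjusted p = 0.0035). Cilp, a matrix protein gene of the same cells, was at 11.6, 8.44 and 14.2 CPM and 32.6, 18.04, 25.8 and 52.9 CPM (-1.51 ± 0.42, adjusted p = 0.0387). Col1a1, the main fibrillar collagen gene, was not called (interval -0.84 to 0.59). Fibroblast markers summed to 689 to 885 CPM in CAST-F1 KO and 699 to 861 CPM in BL6J KO, with 0 of 9 called. Postn held without each library, and Cilp was lost without BL6J KO 1 or 4 or any 1 CAST-F1 KO library. Of 21 genes of glucose uptake and glycolysis 2 were called lower (3 without BL6J KO 2), beside 2.98% of all genes, Eno1 (above, with its copy) and the glucose carrier Slc2a1 (-0.79 ± 0.23, adjusted p = 0.0455), which was lost whenever a library other than BL6J KO 2 was left out.

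Other genes with large or abundant differences were of varied function. Rab6b, a Golgi transport GTPase, was at 3.21, 2.81 and 3.80 CPM in CAST-F1 KO and 25.01, 23.8, 18.03 and 20.7 CPM in BL6J KO (-2.74 ± 0.29, adjusted p = 2.6e-06), and controls differed by -3.19 ± 0.30. Best3, a bestrophin anion channel gene, was at 1.93, 1.51 and 1.77 CPM and 12.1, 8.49, 12.4 and 10.3 CPM (-2.63 ± 0.30, adjusted p = 5.5e-06), and controls by less (-0.92 ± 0.24; difference of the differences -1.70 ± 0.39, adjusted p = 0.144). Tubb3, a beta tubulin best known from neurons, was at 1.71, 0.865 and 3.30 CPM and 17.8, 5.94, 10.99 and 19.1 CPM (-2.81 ± 0.57, adjusted p = 0.00462). All BL6J KO libraries were above all CAST-F1 KO libraries for these 3, and the calls held without each library.

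Mt3, a metallothionein gene (-2.81 ± 0.72), and Cyp2e1, a cytochrome P450 of liver and fat with 3 reads against 104 (21.4 times higher in BL6J, counting interval 7.13 to 106), were also among those 12 lower differences. Cyp2e1 was highest in BL6J KO 2, at 13.8 CPM, and adipocyte markers summed to 0 to 1.93 CPM in CAST-F1 KO and 0.551 to 40.5 CPM in BL6J KO, whose part was not tested. Among abundant genes, Wnk1, a kinase that regulates ion transport, was at 449, 408 and 422 CPM in CAST-F1 KO and 777, 929, 739.6 and 876 CPM in BL6J KO (-0.96 ± 0.18, adjusted p = 0.00178), and Ccng1, a cyclin induced by p53, at 587, 633 and 698 CPM and 1105, 1072, 1033 and 1074 CPM (-0.74 ± 0.15, adjusted p = 0.00427). Both held without each library. Rcan2, a calcineurin regulator (-0.44 ± 0.11), and Tmod1, which caps the pointed ends of sarcomere actin (-0.47 ± 0.13), differed by less and were lost without several libraries. Mt3 was lost without BL6J KO 4 or any 1 CAST-F1 KO library and Cyp2e1 without CAST-F1 KO 2 or 3.

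**Figure D4:**
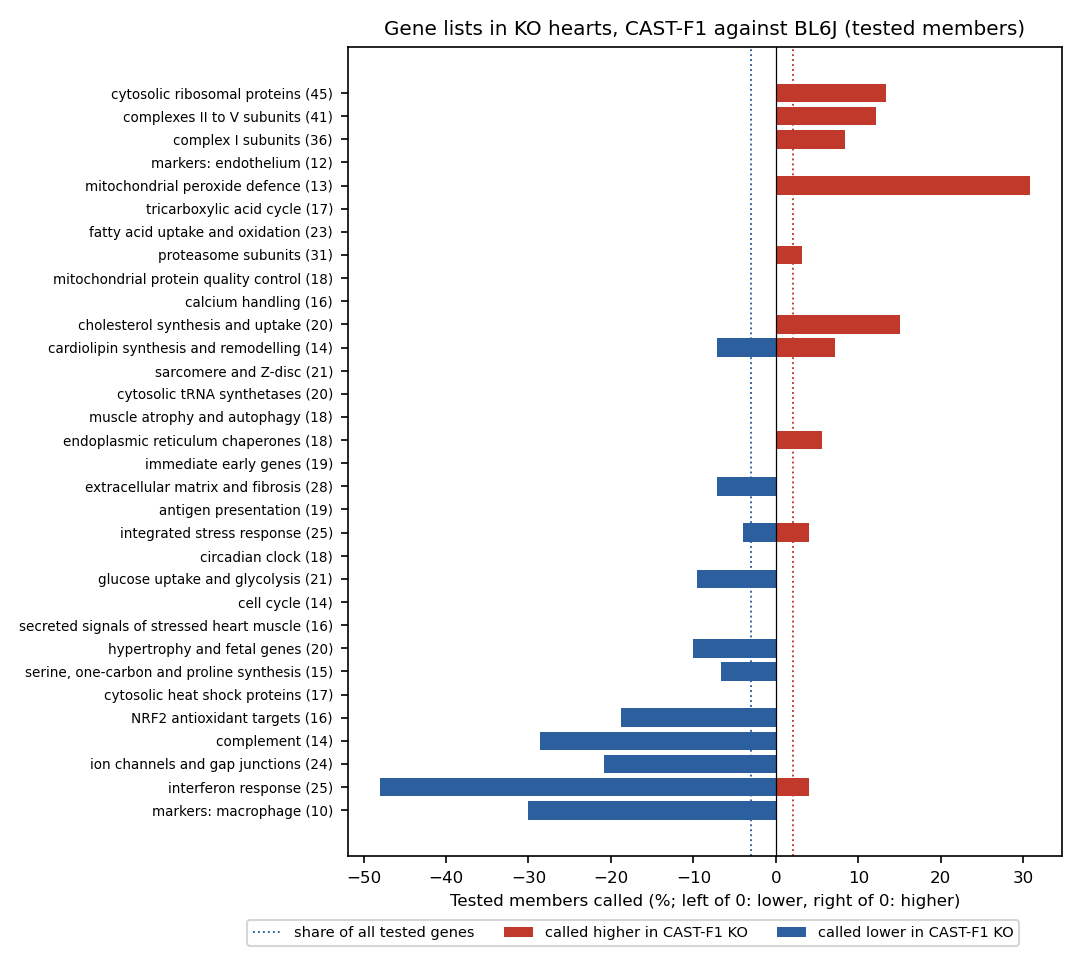
Share of the tested members of each gene list with at least 10 members (number in brackets) that was called higher (right of 0) or lower (left of 0) in CAST-F1 KO, in percent, with dotted lines at the shares over all tested genes (2.14% and 2.98%). The lists are ordered by their median difference. The longest bars are those of interferon genes (12 of 25 lower), mitochondrial peroxide defence (4 of 13 higher) and macrophage markers (3 of 10 lower).

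The remaining lists held 0 called members in edgeR's test with all libraries. They were the tricarboxylic acid cycle (17 tested, 1 at an unadjusted p under 0.05), fatty acid uptake and oxidation (23, 3), NAD synthesis (9, 1), sarcomere and Z-disc (21, 2), calcium handling (16, 1), antigen presentation (19, 2), the circadian clock (18, 3), immediate early genes (19, 1), muscle atrophy and autophagy (18, 3), cytosolic heat shock proteins (17, 2) and cell cycle (14, 2). Over all genes tested, 2308 of 12333 had an unadjusted p under 0.05. Cpt1b, which admits fatty acids to mitochondria, had an interval of -0.025 to 0.44. Markers of cardiomyocytes (7), fibroblasts (9), endothelium (12), mesothelium (8), nerve and glia (4), lymphocytes and neutrophils (2), red cells (5) and adipocytes (1) also had 0 called, as had a list of 4 genes of chromosome Y. That list does not hold Gapdh-ps15, the Y gene called higher. Without BL6J KO 2, 2 endothelial markers were called higher, and 1 gene each of muscle atrophy and autophagy, cytosolic heat shock proteins and cytosolic tRNA synthetases was called lower. The heat shock list also had 1 lower call without BL6J KO 3, antigen presentation 1 without BL6J KO 1 and adipocyte markers 1 without BL6J KO 4. Endothelial markers had 10 of 12 positive differences and summed to 1517 to 1808 CPM in CAST-F1 KO and 846 to 1858 CPM in BL6J KO. Lymphocyte and neutrophil markers summed to 3.42 to 3.55 CPM in CAST-F1 KO and 6.87 to 12.1 CPM in BL6J KO.

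Most genes called between knockout hearts had a difference of the same sign between control hearts. The control comparison called 707 genes (5.73%), 415 higher and 292 lower in CAST-F1 WT. Of the 631 knockout calls, 280 were called in controls, all in the same direction, or 44.4% of the knockout calls and 39.6% of the control calls. The sign agreed for 596 of the 631 (94.5%) and was opposite for 35. Genes called higher in CAST-F1 KO had a median of 1.12 in knockouts and 0.79 in controls, and genes called lower -0.97 and -0.57, where the knockout values chose the genes. Across all 12333 genes the correlation of the differences was r = 0.72 (Spearman 0.57), a description over genes, which are not independent replicates. A gene called in knockouts and not in controls (351 of the 631) is not thereby shown to differ between them.

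The test of the knockout against the control difference called 4 genes (0.0324% of 12333), 3 with a higher (0.0243%) and 1 with a lower difference in knockouts (0.00811%), and 597 passed an unadjusted p under 0.05. Kif5a (chromosome 10, 127225695 to 127266348), a kinesin motor known from neurons, was at 49.6, 49.3 and 58.8 CPM in CAST-F1 KO and 12.3, 8.49, 11.8 and 12.3 CPM in BL6J KO. It stood at 0.924, 1.27 and 0.689 CPM in CAST-F1 WT and 1.54, 2.10, 0.9104 and 1.204 CPM in BL6J WT, so controls were low in both backgrounds. The knockout difference was 2.22 ± 0.20, adjusted p = 1.5e-07, and the difference of the differences 2.80 ± 0.42, adjusted p = 0.0131. The unnamed locus 1810010H24Rik was at 25.03, 28.3 and 23.8 CPM in CAST-F1 KO, 3.49, 2.97, 3.61 and 2.94 CPM in BL6J KO, 2.23 ± 0.173 CPM in CAST-F1 WT (SD, n = 3) and 1.71 ± 1.07 CPM in BL6J WT (SD, n = 4). Its difference of differences was 2.62 ± 0.47, adjusted p = 0.0479.

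Bckdhb (chromosome 9, 83925111 to 84124240), a subunit of the complex that oxidises branched-chain keto acids, was at 134, 129.8 and 119 CPM in CAST-F1 KO and 55.9, 44.6, 49.8 and 42.8 CPM in BL6J KO. Controls were at 86.5, 83.4 and 69.1 CPM and 59.6, 59.98, 65.3 and 62.8 CPM, so that BL6J KO was the lowest and CAST-F1 KO the highest of the 4 groups, without overlap with the controls of its own background. The difference of the differences was 1.04 ± 0.18, adjusted p = 0.0403. Fmn1, an actin-nucleating formin, was higher in CAST-F1 in both genotypes, at 36.1, 47.2 and 38.5 CPM against 3.86, 5.94, 6.70 and 6.98 CPM in knockouts and 71.6, 62.6 and 50.1 CPM against 0.922, 1.72, 0.455 and 2.41 CPM in controls, with a smaller gap in knockouts (-2.67 ± 0.48, adjusted p = 0.0479). The 4 knockout differences held without each of the 7 libraries, while the test of the difference called 0 to 3 genes when a library was left out.

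**Figure D5:**
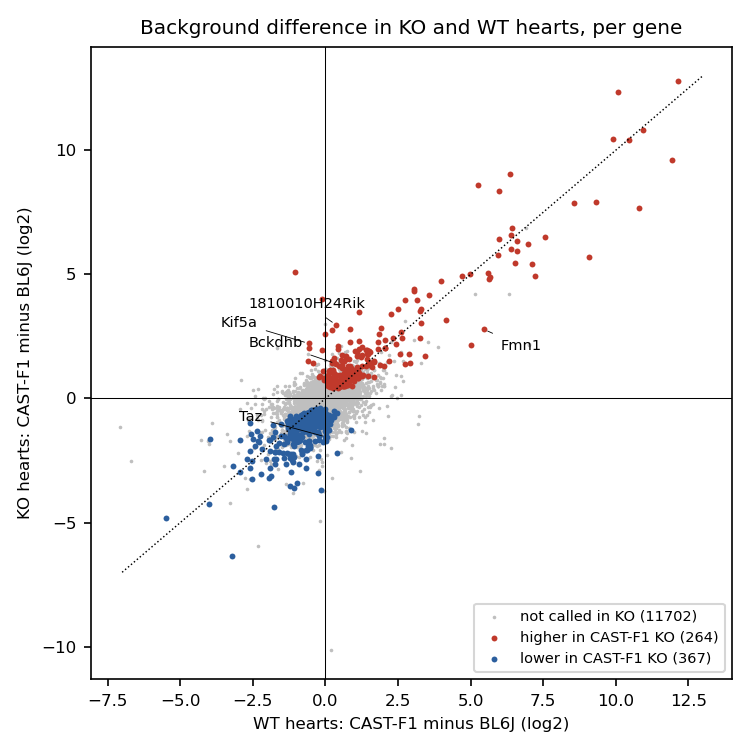
Log2 difference of CAST-F1 over BL6J in knockout hearts (vertical) against control hearts (horizontal), 1 point per tested gene, with the 264 genes called higher and 367 called lower in knockouts in colour and the line of equal differences dotted. Kif5a and 1810010H24Rik lie above the line near a control difference of 0, Bckdhb above it and Fmn1 below it.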

How the data were processed

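Per the labels' protocols, RNA was polyA-selected and the libraries were stranded. Tools listed in the submitters' processing notes are HISAT, featureCounts and DESeq2, with GRCm38.p6 as genome build. Their versions and the use of strand in counting are not given in the sources used here. The authors deposited raw counts per gene and library, and only these counts were used. The part that alignment of CAST alleles to 1 reference genome has in the differences was not tested.

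Of 14732 genes, 12333 passed filterByExpr. Counts of all 21 libraries were fitted with 6 group means and TMM factors in edgeR's quasi-likelihood test (edgeR 4.0.16, limma 3.58.1, R 4.3.3), with two-sided p-values adjusted by Benjamini-Hochberg over all genes. The residual degrees of freedom were 15, and the common biological coefficient of variation was 20.3%. Contrasts were CAST-F1 minus BL6J in KO, in WT, and their difference. Log2 CPM used a prior count of 2. Intervals are at 95%, and the floor was 3 counts over a group. The script was tested on simulated data. Alternatives were other size factors, filters and tools (DESeq2 1.42.0, limma-voom), smaller fits, a replicate block, a fold threshold and each library left out.

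The members, the 44 gene lists and the alternatives were chosen with earlier results of these data known. Genes were named by a rule: a panel of 28 genes, the 12 largest called differences in each direction with at least 5 CPM in a KO group and no overlap, the 6 most abundant called genes in each direction, genes called in the difference, and up to 4 members of each list with a called member. Not every gene the rule names is printed, and some genes behind the counts are not reported here. Further list members, parent genes of copies, Myl1 and Casq1 were named after their values were seen. Positions and promoters are from RefSeq, where 14435 symbols matched.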

Additional observations from a re-analysis of the deposited data

Results flagged for a closer look

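In groups of 4 libraries, Dixon's ratio, the gap to the nearest other library over the whole range, passed its critical value and marked 1 library as far from the others in 10 of 242 groups, and chance gives about 1 in 20. Of these, 4 were BL6J KO 2. That library had 13.8 CPM of Cyp2e1 against 1.29 to 2.94 in the others (ratio 0.868), 8.49 CPM of Kif5a against 11.8 to 12.3 (0.877), 251 CPM of Ndufs6 against 289 to 293 (0.898) and 60.7 CPM of Srxn1 against 113 to 122 (0.859). BL6J KO 4 had 50.7 CPM of Cbr2 against 19.5 to 24.6 (0.839), and BL6J KO 1 had 3.31 CPM of Gapdh-ps15 against 1.03 to 1.27 (0.893). Among controls, BL6J WT 1 had 2043 CPM of Ankrd1 against 720 to 923 (0.846). BL6J WT 3 had 28.7 CPM of Atf5 against 46.2 to 48.7 (0.875), 390 CPM of Cat against 425 to 430 (0.871) and 72.2 CPM of Manf against 53.9 to 57.0 (0.83).

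The background difference was not the same in knockout and control hearts for 4 genes by edgeR's test of that difference. The knockout log2 difference exceeded the control one by 2.80 for Kif5a, 2.62 for 1810010H24Rik and 1.04 for Bckdhb, and for Fmn1 it was lower, at -2.67. The cause was not tested for any of these.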

How the results depend on the processing

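The knockout count of 631 was 640 with DESeq2 size factors, 637 with upper-quartile factors, 636 without a filter, 676 at 1 CPM or more in 3 libraries, 843 with the DESeq2 Wald test and 445 with a replicate block. It moved to 1897 with limma-voom and sample weights, 1077 with only the groups compared, 1372 without the AJ-F1 libraries and 339 against a fold of at least 1.2, and to 302 to 570 with a library left out. The control count of 707 moved to 2272, 1467, 1435 and 355 under these 4 settings, to 491 with the block, and to 305 to 590 with a library left out. Its share of higher calls was 58.7%, and 49.5% with only the groups compared. The difference test with its 4 genes gave 2 with DESeq2 size factors, 2 at 1 CPM, 27 with DESeq2, 74 with limma-voom, 17 with only the groups compared, 17 without AJ-F1, 0 with the block, 1 against a fold of 1.2 and 0 to 3 with a library left out. The labels do not say that replicate numbers pair the samples. Same-numbered knockout libraries deviated together with r of 0.104, 0.047 and 0.092, and controls with 0.071, -0.084 and -0.071. Libraries of different numbers were not set beside these, so the values do not decide whether the numbers pair samples. Of 95 called genes taken by the naming rule or added to it, 52 kept call and sign in every setting that tested them. Signs reversed only in named genes near 0 that were not called. With a library left out Nppb ran from -0.40 to 0.12, Acta1 from -0.25 to 0.073, Atp2a2 from -0.052 to 0.072, Atf4 from -0.11 to 0.074, Atf5 from -0.18 to 0.036, Ostn from -0.050 to 0.39 and Rpl37 from -0.025 to 0.12, and with limma-voom Atf4 was at -0.022 and Atf5 at 0.016. The causes were not tested. With 3 and 4 libraries, small differences in genes of under 10 reads a group could go undetected at this depth. The smallest called difference over all genes was 0.385 on the log2 scale, and a limit of detection was not computed.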
